A study of Mus musculus with 2 samples.

Results

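The genes described here encode the machinery of autophagy and of mitochondrial clearance. They were chosen by name in the array's gene column: the Atg, Gabarap and Map1lc3 families and 19 further named genes such as Becn1, Ulk1, Sqstm1, Bnip3, Pink1 and Park2. The array carried 72 probes for 35 of these genes. A probe was kept where it was well above background in the same channel on both arrays, which held for 65 probes of 33 genes, out of 24426 kept probes and 16582 genes or transcripts on the whole array. Atg4c and Atg9b had no kept probe and have no value here.

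RNA came from G1E-ER-GATA-1, a mouse erythroid line that lacks its own GATA-1 (strain GATA-1-null in the labels) and expresses a fusion of GATA-1 with the hormone-binding part of an oestrogen receptor. Both groups were therefore GATA-1-null cells with the fusion protein, and both received β-estradiol for 24 h after transfection, which switches the fusion on and starts erythroid maturation. One group received control siRNA and the other an siRNA that targets ETO2, a corepressor whose gene is Cbfa2t3. Each of 2 arrays held both groups, with control RNA in Cy5 and ETO2 siRNA RNA in Cy3, and 1.2 µg of total RNA per dye. The dyes were not swapped, so any dye bias of a single probe goes the same way on the 2 arrays and is part of its ratio. The labels number the arrays as replicates without stating separate cultures, so p-values measure only the spread between these 2 arrays. The test takes that spread mostly from all genes together (13.6 prior degrees of freedom against 1 of the gene's own). A gene's SD therefore does not set its p-value alone. The question the design addresses is how lowering ETO2 changes transcript levels during maturation driven by GATA-1.

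Autophagy wraps cytoplasm in a double membrane and delivers it to lysosomes. A kinase complex around ULK1 starts the process, a lipid kinase complex with Beclin 1 marks the membrane, and ubiquitin-like conjugation attaches proteins of the ATG8 family (LC3 and GABARAP) to it. Cargo receptors such as p62 and mitochondrial receptors such as NIX and BNIP3 then tie cargo to the ATG8 proteins. Maturing red cells lose their mitochondria in this way, and NIX (gene Bnip3l) is known for its part in that step.

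The results turn on a few probes, which were 60 bases long. The brighter Gabarap probe is shown first because it resembles the dimmer probe of the paralogue Gabarapl1: in the best ungapped alignment 43 of 55 positions were identical (capitals), with a longest shared run of 15 bases.
Gabarap, chromosome 11, probe A_52_P558188: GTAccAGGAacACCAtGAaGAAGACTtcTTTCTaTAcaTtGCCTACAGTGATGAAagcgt
Gabarapl1, chromosome 6, probe A_51_P304757: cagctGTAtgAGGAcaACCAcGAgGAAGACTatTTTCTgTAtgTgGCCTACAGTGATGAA
The second Gabarap probe shares no run over 6 bases with any kept probe of Gabarapl1, Gabarapl2, Map1lc3a or Map1lc3b.
Gabarap, chromosome 11, probe A_51_P295312: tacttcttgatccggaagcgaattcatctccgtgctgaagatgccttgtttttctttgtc
The brighter probes of Atg4b and Becn1 are shown because these genes rank next to Gabarap among the higher members of the core machinery.
Atg4b, chromosome 1, probe A_52_P131490: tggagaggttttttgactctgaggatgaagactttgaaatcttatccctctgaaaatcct
Becn1, chromosome 11, probe A_51_P489337: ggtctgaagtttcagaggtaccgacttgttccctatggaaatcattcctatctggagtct
Sequences are those of the array files, read 5′ to 3′, and the chromosomes are those of the RefSeq gene table of GRCm38.p6. The position of a probe within its transcript is not given here.

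The targeted gene was lower after its siRNA. Cbfa2t3 had log2 ratios, ETO2 siRNA over control, of -0.39 and -0.46 on arrays 1 and 2 (adjusted p = 9.13e-05), a 1.34-fold fall, and its second probe stood at -0.23. Median spot signals were 77.5 to 82.8 scanner units for ETO2 siRNA and 105 for control siRNA, over backgrounds of 44 to 47. For all 33 genes the spot was brighter in the control channel on both arrays before normalization, so each higher ratio below appears only after the channels are normalized to each other. Of 10 measured erythroid markers 9 were higher and Gata1 was lower (-0.18). Among the 9, spots of Hbb-bt (1.05) and Hba-a1 (1.03) reached the scanner's upper limit for either siRNA on each array. Ratios of spots at that limit do not measure a change. Whether the Gata1 probe also reads RNA of the fusion was not tested. The labels call the cells murine ES cells and their tissue erythroid. The embryonic stem cell genes Pou5f1, Nanog and Sox2 had no probe above background on both arrays, and none of the 4 measured markers of that list was called. Of the other marker lists, 3 of 7 mast cell genes were higher and 2 lower, none of 4 macrophage genes was called, and 2 of 7 megakaryocyte genes were higher and 1 lower. For comparison with these counts, 18.4% of all genes were higher and 22.3% lower. The part of these markers in the results below was not tested. In bulk RNA, a change in the share of a cell type and a change in RNA per cell cannot be told apart.

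Of the 33 autophagy and mitophagy genes, 7 rose after ETO2 siRNA, 6 fell and 20 did not pass the adjusted threshold of 0.05 (limma, adjusted over 16582 genes and transcripts). Among all genes tested, 40.7% were called, 18.4% higher and 22.3% lower, so the share of members called was close to that of the array as a whole. The median log2 ratio of the members was -0.04 and that of all genes -0.02. Gabarap, Atg4b, Park2, Becn1, Atg10, Pink1 and Atg3 were higher, and Bnip3, Sqstm1, Pik3c3, Atg12, Atg7 and Calcoco1 were lower. Gabarap alone among the 13 changed by more than 1.5-fold; 92.3% of the members' calls and 91.4% of all calls were smaller than that. Ratios of the members agreed between the 2 arrays with Pearson r = 0.900 and Spearman rho = 0.877 across genes, which are not independent replicates, against r = 0.861 over all genes.

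**Figure D1:**
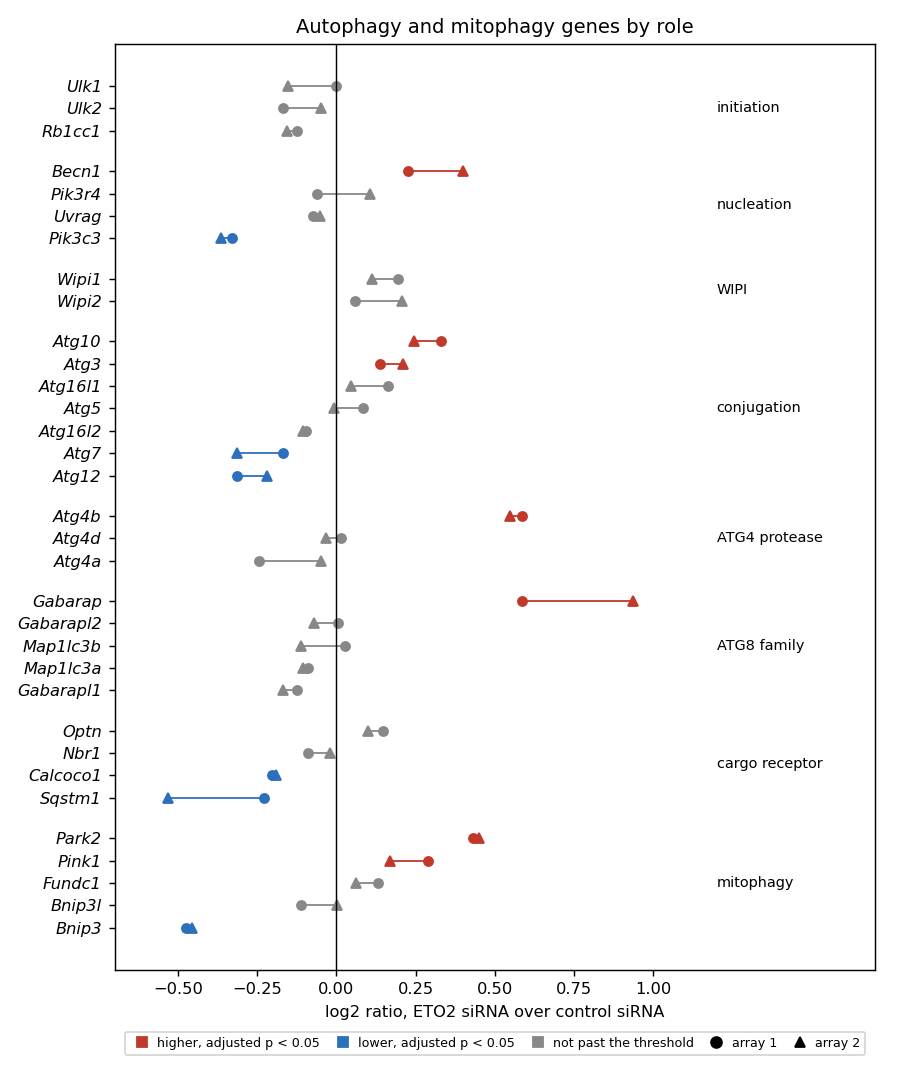
Log2 ratio of ETO2 siRNA over control siRNA (x axis) for each of the 33 genes (y axis), grouped by role, with array 1 as a circle, array 2 as a triangle and colour for the call. Calls of both directions occur in the nucleation, conjugation and mitophagy groups, and Gabarap stands farthest to the right. With each array centred on its median, Becn1, Atg10, Pink1 and Atg3 fall below 0, and all of these but Atg10 are called lower.

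The ATG8 proteins coat the growing membrane and bind cargo receptors. Gabarap (NM_019749) had the largest rise of all members. Its normalized log2 signal was 13.18 and 13.30 in the ETO2 siRNA channel of arrays 1 and 2, against 12.59 and 12.36 in the control channel. Both ETO2 siRNA values lay above both control values. Such separation does not mark called genes, here or in the genes below. Among members not called, the channels of Wipi1 (10.85 and 10.87 against 10.66 and 10.76) also stood apart. Those of Gabarapl1 did too (15.28 on both arrays against 15.40 and 15.44). Channel levels carry the same ratios that were tested, so their separation adds no support. Its share over all genes was not counted. The log2 ratio of Gabarap was 0.76 ± 0.25 (SD, n = 2 arrays), a 1.69-fold rise with limma's adjusted p = 2.84e-06. The second Gabarap probe gave 0.74 and 1.11 on the arrays (adjusted p = 3.51e-07 over probes), a larger ratio than that of the brighter probe. It was compared only with the paralogues' kept probes, and its match to their transcripts was not tested.

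The other ATG8 genes were not called. Gabarapl1, whose control spot was saturated on 1 array, stood at -0.15 with -0.13 on its second probe, Gabarapl2 at -0.03, Map1lc3b (LC3B) at -0.04 and Map1lc3a (LC3A) at -0.10. The ratio of Gabarap exceeded theirs by 0.56 to 0.71 on array 1 and by 1.01 to 1.11 on array 2; these differences between genes were not tested. The Gabarapl1 probe that resembles the Gabarap probe measured -0.13 on both arrays. Over single probes, the dimmer Map1lc3b probe was called lower at -0.18 (adjusted p = 0.0409).

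ATG4 proteases trim ATG8 proteins before conjugation and later release them from membranes. Atg4b (NM_174874), which encodes the best known of them, read 10.98 and 10.97 with ETO2 siRNA against 10.39 and 10.42 with control siRNA. The channels did not overlap, and the arrays differed little. Its log2 ratio was 0.57 ± 0.03 (SD, n = 2 arrays; 1.48-fold, adjusted p = 6.12e-06), and its second probe gave 0.65. Atg4d stood at -0.01, with other probes at 0.12 and 0.006, and Atg4a at -0.15, none of them called. The ratio of Atg4b exceeded that of Atg4a by 0.83 and 0.59 and that of Atg4d by 0.57 and 0.58 on the 2 arrays, differences that were not tested.

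Conjugation needs an activating enzyme (Atg7), conjugating enzymes (Atg3 and Atg10) and a complex of ATG12, ATG5 and ATG16L1. These genes were called in both directions. Atg10, which joins ATG12 to ATG5, rose, with 10.97 and 10.94 in the ETO2 siRNA channel against 10.64 and 10.70 (log2 ratio 0.29 ± 0.06, SD, n = 2 arrays; adjusted p = 0.00205). Atg3, which passes ATG8 proteins to lipid, rose by less, with 12.27 and 12.22 against 12.13 and 12.01 (0.17, adjusted p = 0.0372). Neither gene's channels overlapped.

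Atg7 fell, with 7.81 and 7.69 in the ETO2 siRNA channel against 7.98 and 8.002 in the control channel (-0.24 ± 0.10, SD, n = 2 arrays; adjusted p = 0.00823). Atg12, the ubiquitin-like partner of ATG5, fell from 13.37 and 13.34 to 13.06 and 13.13 (-0.27, adjusted p = 0.00365). Both arrays showed the fall in each gene. Second probes did not repeat these 4 calls: Atg10 had -0.11 on its other probe, Atg7 -0.002, and Atg3 0.001 and 0.008. Atg12 had a second probe called higher at 0.17 and another at -0.05. Atg16l1 (0.10), its relative Atg16l2 (-0.10) and Atg5 (0.04) did not pass the threshold.

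The nucleation complex joins Beclin 1 (Becn1) to the lipid kinase VPS34 (Pik3c3) and its regulatory subunit VPS15 (Pik3r4). UVRAG is a further partner of Beclin 1. Becn1 (NM_019584) rose and Pik3c3 (NM_181414) fell. Becn1 read 12.20 and 12.27 with ETO2 siRNA against 11.97 and 11.87 with control siRNA (0.31 ± 0.12, SD, n = 2 arrays; 1.24-fold, adjusted p = 0.00155). Pik3c3 read 9.39 on both arrays with ETO2 siRNA against 9.72 and 9.75 (-0.35 ± 0.02, SD, n = 2 arrays; 1.27-fold, adjusted p = 4.69e-04). In both genes the channels stood apart on both arrays. The second Becn1 probe was at -0.03 and not called, and with the mean of the Becn1 probes the ratio was 0.14 (adjusted p = 0.0762). Pik3r4 stood at 0.02 (second probe -0.12) and Uvrag at -0.06 (second probe 0.02).

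Of the initiation kinase complex, the 3 member genes did not pass the threshold on their brightest probes. Ulk1, the kinase, stood at -0.08, Ulk2, its relative, at -0.11, and Rb1cc1, which encodes the scaffold FIP200, at -0.14. Dimmer probes of all 3 genes were called lower: 1 of Ulk1 at -0.40, a pair of Ulk2 probes at -0.25 and -0.26, and a pair of Rb1cc1 probes at -0.23 and -0.29. All 6 kept Rb1cc1 probes were below 0. Averaged over their probes, Ulk1 (-0.24) and Ulk2 (-0.21) were called lower. WIPI proteins read the lipid made by VPS34. Wipi1 (0.15) and Wipi2 (0.13) were not called, although the second Wipi1 probe was (0.19), and the other Wipi2 probes were called lower at -0.33, called higher at 0.33 and not called at 0.01.

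Cargo receptors link ubiquitin-marked cargo to ATG8 proteins. Sqstm1 (NM_011018), which encodes p62, fell, with 14.55 and 14.56 in the ETO2 siRNA channel against 14.78 and 15.09 in the control channel. The control values were the higher ones on both arrays, and the arrays differed mainly in the control channel. The log2 ratio was -0.38 ± 0.21 (SD, n = 2 arrays; 1.30-fold, adjusted p = 8.42e-04), -0.23 on array 1 and -0.53 on array 2. Calcoco1, a relative of the receptor NDP52, read 7.56 and 7.67 against 7.76 and 7.86 (-0.20, adjusted p = 0.0195). Its channels did not overlap either. Optn, which encodes optineurin, stood at 0.12 and Nbr1, a receptor similar to p62, at -0.06, with other probes at -0.09 and 0.13, none of them called.

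Mitochondria are marked for removal by receptors in their outer membrane or by the kinase PINK1 and the ubiquitin ligase parkin. Bnip3 (NM_009760), a receptor known for its rise in low oxygen, had the largest fall of all members. It read 14.82 and 14.91 with ETO2 siRNA against 15.30 and 15.36 with control siRNA. Both ETO2 siRNA values were below both control values. The log2 ratio was -0.46 ± 0.01 (SD, n = 2 arrays; 1.38-fold, adjusted p = 3.73e-05).

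Bnip3l, the gene of NIX, stood at -0.06 and was not called, while its second probe was called higher at 0.21 (adjusted p = 0.0174 over probes). The ratio of Bnip3 lay below that of Bnip3l by 0.36 on array 1 and by 0.46 on array 2, a difference that was not tested. No pair of their probes shared a run over 6 bases. Fundc1, another outer membrane receptor, was at 0.10 and not called.

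Park2, the gene of parkin, read 7.94 and 8.12 with ETO2 siRNA against 7.51 and 7.67 (0.44 ± 0.01, SD, n = 2 arrays; 1.36-fold, adjusted p = 5.99e-05). Its channels did not overlap, but the signal was low, with raw spots of 198 to 246 scanner units, and the second kept probe stood at 0.01. Pink1 read 12.07 and 12.15 against 11.78 and 11.99 (0.23 ± 0.08, SD, n = 2 arrays; adjusted p = 0.00998). On each array its ETO2 siRNA channel was the higher one, with log2 ratios of 0.29 and 0.17.

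**Figure D2:**
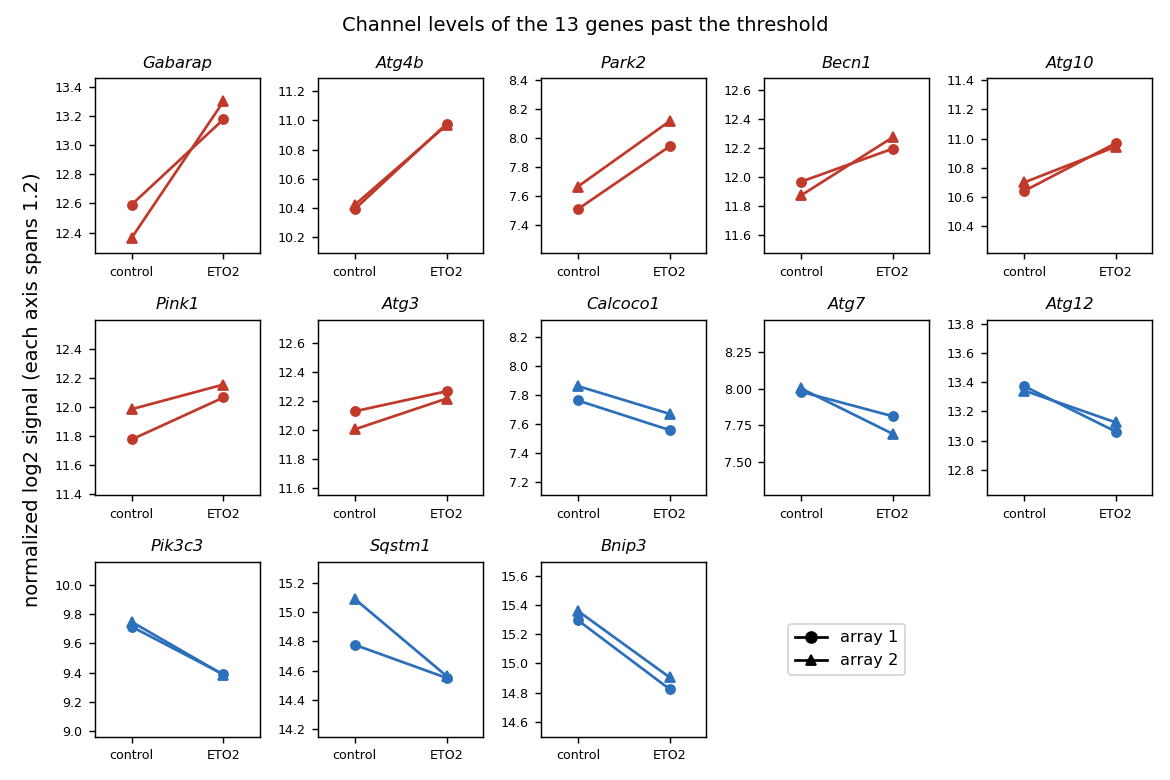
Normalized log2 signal (y axis, each spanning 1.2) in the control and ETO2 siRNA channels for the 13 called genes, with 1 line per array. Lines of both arrays run the same way in every panel, and the steepest is that of Gabarap on array 2, from 12.36 to 13.30.

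Probes of a gene did not always give the same answer. Of 65 kept member probes, 13 were called higher, 13 lower and 39 not called; over all kept probes 39.4% were called, 18.7% higher and 20.7% lower. Among the 21 genes with 2 or more kept probes, 12 had all probes on one side of 0 and 8 had one call throughout. Gabarap and Atg4b were the called genes with several kept probes that were all called the same way. Atg12 and Wipi2 each had probes called in opposite directions. The opposed probes were short stretches of different sequence, with shared runs of at most 7 bases in Atg12 and 5 in Wipi2, and whether they read different transcript forms was not tested. Bnip3, Sqstm1, Pik3c3, Calcoco1 and Pink1 had 1 probe each.

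**Figure D3:**
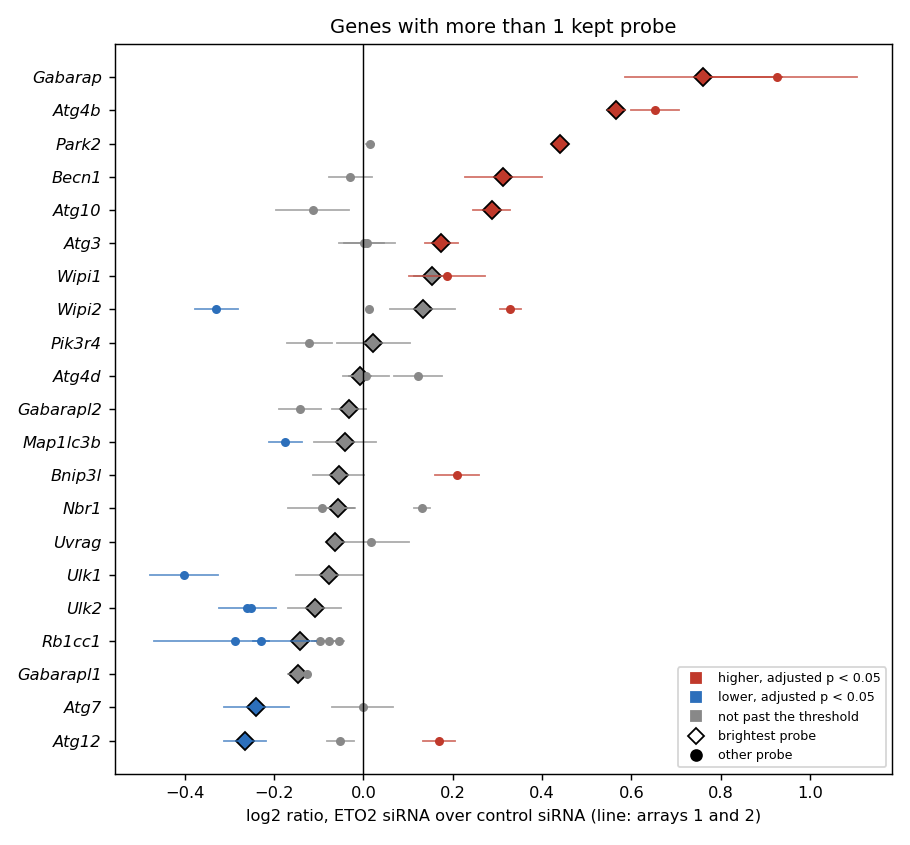
Log2 ratio (x axis) of every kept probe for the 21 genes with more than 1 (y axis), with the brightest probe as a diamond, other probes as dots, and a line from array 1 to array 2. Probes of Gabarap and Atg4b lie together on the right, while those of Wipi2 spread from -0.33 to 0.33.

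Of the same core machinery, 6 further genes carried other names in the array's gene column and were found through updated names. Ambra1, which activates the Beclin 1 complex, fell by 0.46 on the log2 scale (-0.41 and -0.50 on the arrays, adjusted p = 4.79e-05). Atg14, the subunit that directs VPS34 to autophagosomes, rose (0.24, adjusted p = 0.00737), as did Atg2b, a lipid transfer protein (0.35, adjusted p = 6.22e-04), and Atg101, a subunit of the ULK complex (0.18, adjusted p = 0.0298). Atg13 (0.10) and Atg2a (0.05) were not called. Of Beclin 1 and its partners, Becn1 and Atg14 were thus called higher with loess, Pik3c3 and Ambra1 lower, and Pik3r4 and Uvrag not called. With processed signals Becn1 (0.30, limma's adjusted p = 0.0713) and Pik3c3 (-0.08, adjusted p = 0.505) lost their calls. Becn1 was called lower with median centring (-0.20). Atg14 and Ambra1 are given with loess only.

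The genes around the core machinery were read from 5 lists, of which 88 of 94 genes were measured; 21 were higher and 26 lower, with a median log2 ratio of 0.005, where 18.4% of all genes were higher and 22.3% lower. The list with the lowest median was that of autophagosome fusion with lysosomes (-0.21): 10 of its 16 genes were lower, 2 higher and 4 not called, against 22.3% lower and 18.4% higher over all genes. Vps39 (-0.56) and Vps18 (-0.40), subunits of the HOPS tether, Lamp1 (-0.41), an abundant lysosomal membrane protein, and Snap29 (-0.31), a SNARE of the fusion step, fell. The SNARE Ykt6 (0.22) and the HOPS subunit Vps41 (0.18) rose. With the scanner software's own processed signals, 3 of the 16 were lower and none higher, with a median of -0.07, and with the mean of each gene's probes 6 were lower and 1 higher. All 16 were lower with each array centred on its median, and 13 with centring on kept probes, with none higher in either. Over all 16582 genes, 10809 were lower and 464 higher with median centring, and 5965 and 5104 with centring on kept probes. With processed signals 1264 of all genes were lower and 1189 higher, and with the mean of probes 3312 and 2875.

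**Figure D4:**
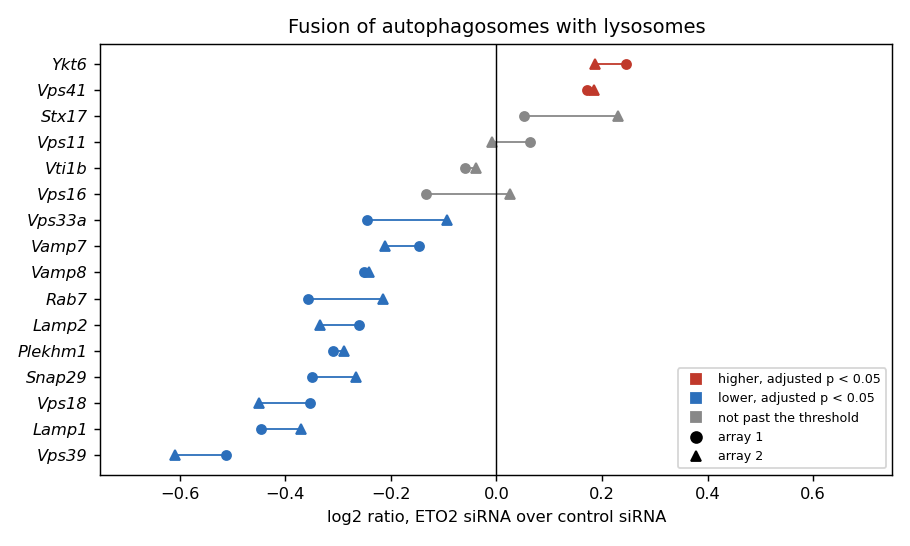
Log2 ratio of ETO2 siRNA over control siRNA (x axis) for the 16 genes of autophagosome fusion (y axis), with array 1 as a circle, array 2 as a triangle and colour for the call. The 10 genes called lower run from Vps33a (-0.17) to Vps39 (-0.56), and Ykt6 and Vps41 are the 2 called higher.

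Of 19 measured genes of the mTOR, AMPK and FOXO pathways, which set autophagy by nutrient and energy state, 6 were higher and 3 lower (median 0.12). This balance changed with the scaling: 2 were higher and 1 lower with processed signals (median -0.02), 2 and 13 with median centring (-0.37), and 6 and 6 with centring on kept probes (-0.08). With the mean of a gene's probes 3 were higher and 3 lower. Over all 16582 genes, 464 were higher and 10809 lower with median centring, and 5104 and 5965 with centring on kept probes. With processed signals 1189 of all genes were higher and 1264 lower, and with the mean of probes 2875 and 3312. With loess 18.4% of all genes were higher and 22.3% lower. Akt1s1 (0.54), an mTORC1 subunit, and Stk11 (0.49), the kinase LKB1 upstream of AMPK, rose, and Ddit4 (-0.40) and Tsc2 (-0.30) of the same pathways fell. Of 22 other autophagy factors 5 were higher and 7 lower (median -0.07), against none and 3 with processed signals, none and 16 with median centring (median -0.50) and 3 and 13 with centring on kept probes (-0.22). Vmp1 (-0.65), needed for autophagosome formation at the endoplasmic reticulum, Nrbf2 (-0.41), a subunit of the VPS34 complex, and Bcl2l1 (-0.37), which encodes BCL-XL, a survival protein that binds Beclin 1, fell. Ncoa4 (0.48), the receptor that takes ferritin to lysosomes, rose, with 0.31 on array 1 and 0.66 on array 2.

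Of 25 measured genes of the mitochondrial outer membrane and of mitochondrial quality control, 5 were higher and 5 lower (median 0.04). With processed signals 2 were higher and none lower (median 0.04), with median centring none and 22 (-0.52), and with centring on kept probes 2 and 16 (-0.24). The median of all genes was -0.31 with median centring and -0.02 with centring on kept probes. Of 16582 genes, 464 were higher and 10809 lower with median centring, and 5104 and 5965 with centring on kept probes. With processed signals 1189 were higher and 1264 lower. With loess 18.4% of all genes were higher and 22.3% lower. Mfn1 (0.44), a fusion GTPase, and Fis1 (0.36), a fission factor, rose, and Htra2 (-0.46), a protease of the space between the membranes, and Usp30 (-0.34), a deubiquitinase that opposes parkin, fell.

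Promoters were read for 25 of the 33 genes from the RefSeq table of GRCm38.p6 (27 start sites, 250 bases before each). The called genes Park2, Becn1, Atg12 and Pik3c3 were not among the 25, nor were Atg16l1, Bnip3l, Map1lc3a and Rb1cc1. A GATA motif, spelled AGATAA or AGATAG or TGATAA or TGATAG on either strand, was present in 4 of the 27 (Pink1, Atg4d, Nbr1 and Atg4a), against 26.5% of 32851 promoters of the same length. The E-box CACGTG, which reads the same on both strands, was present in 4 of the 27 (Atg3, Atg5, Atg7 and Bnip3), against 6.0% of all. Of these 8 genes, Pink1 and Atg3 were higher, Atg7 and Bnip3 lower and 4 not called. The promoter of Bnip3 is shown as that of the member with the largest fall, with the E-box in capitals 108 bases before the start (chr7:138909507-138909756, minus strand).
Bnip3 promoter: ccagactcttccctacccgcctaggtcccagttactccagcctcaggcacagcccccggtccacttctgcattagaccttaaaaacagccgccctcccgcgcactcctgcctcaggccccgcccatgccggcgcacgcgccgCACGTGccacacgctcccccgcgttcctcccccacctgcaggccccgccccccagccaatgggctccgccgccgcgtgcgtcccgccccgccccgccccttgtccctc
A match of letters is a description of the sequence, and binding was not measured.

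Normalization moved the members' calls. With the scanner software's processed signals, Gabarap, Atg4b and Park2 were higher and Bnip3 lower, and no other member was called; Sqstm1 kept its ratio there (-0.38, adjusted p = 0.0551), while Pik3c3 was at -0.08 and Pink1 at 0.03. With each array centred on the median of all spots, which put the median of all genes at -0.31, Becn1, Atg10, Pink1 and Atg3 were below 0, and Gabarap and Park2 were the members called higher. The calls of Becn1, Pink1 and Atg3 reversed to lower there (limma's adjusted p = 0.0206, 8.76e-04 and 4.33e-05). In that setting 29 members were called lower, as were 10809 of 16582 genes. Of the 13 calls, those of Gabarap, Park2 and Bnip3 were the same under all 10 alternatives, and 12 genes, all but Atg3, stayed on the same side of the median of all genes. The alternatives were not all separate. Changing the probe filter, leaving out saturated probes or adding an intensity trend left the loess ratios of the 13 genes unchanged. The deposited table repeats the processed signals' ratios.

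**Figure D5:**
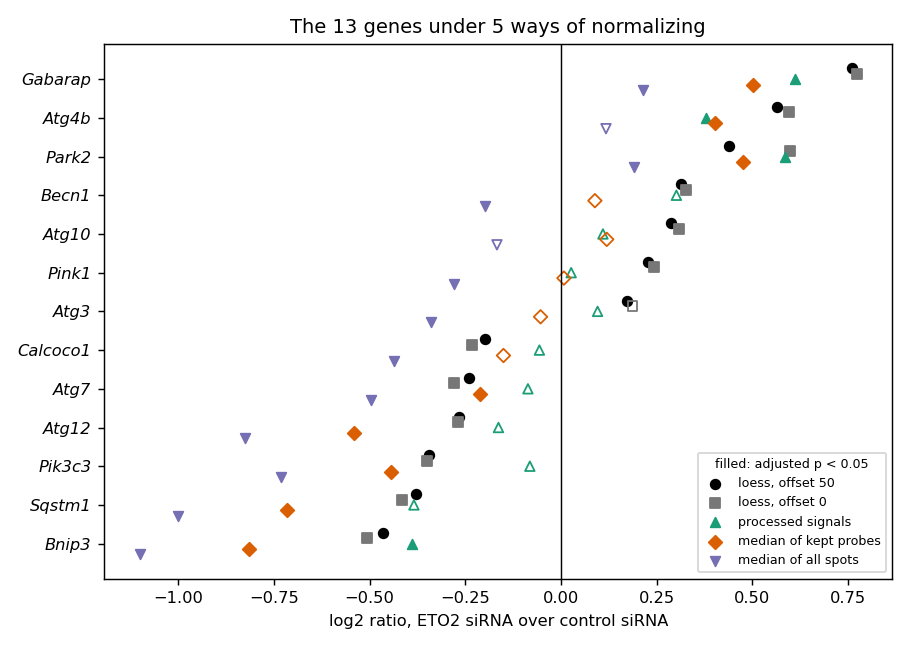
Log2 ratio (x axis) of the 13 called genes (y axis) under 5 ways of normalizing, with filled symbols where the adjusted p was below 0.05. Gabarap and Park2 are above 0 and called in each, Bnip3 is below 0 and called in each, and median centring of all spots moves every gene to the left.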

How the data were processed

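Spot and background intensity values were deposited as linear scanner output of Agilent Feature Extraction 9.1.3.1, per the file headers and the submitters' processing notes. Processed intensity and the log10 ratio of red over green were background-subtracted and dye-normalized by that software, per the file headers, and the authors' deposited ratio table holds the same log10 values rounded. All log2 ratios here have the sign turned to ETO2 siRNA over control siRNA.

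In limma 3.58.1 (R 4.3.3), mean spot signals were corrected with local background by normexp (offset 50) and normalized by loess within each array. Control features had weight 0 in loess, and 10 and 4 outlier spots were dropped. Channel levels are loess values after Aquantile scaling. A gene is its brightest kept probe. Of 41174 probes, 24375 were named by accession, 6301 by symbol and 2426 by synonym in the RefSeq table of GRCm38.p6, and 8072 kept the file's name; members were found by the file's name only. Ratios were tested against 0 by a two-sided lmFit and eBayes test, with p-values adjusted by Benjamini-Hochberg over all genes, or over all probes for probe calls (threshold 0.05). With 2 arrays there is 1 residual degree of freedom, and eBayes added 13.6 prior degrees of freedom; a sign permutation cannot go below p = 0.5. The number of arrays limits the precision. Both arrays lay on 1 slide.

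Every member with a kept probe is named, with each probe where probes differ in sign or call, and of each related list at most the 4 called genes with the largest change. Ykt6, Vps41, Vps33a, Atg13 and Atg2a fall outside this rule and were named after their values were seen. The members and lists were chosen with earlier results of these data known. The steps were tested on simulated arrays. Single genes of 1 of the 5 related lists are not reported here, and the counts over all related genes include them.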

Additional observations from a re-analysis of the deposited data

How the results depend on the processing

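Gene calls were recomputed under 10 alternatives, 1 of them, centring on the median of kept probes, chosen after seeing the data. Member genes called higher and lower numbered 7 and 6 with loess, 3 and 1 with the scanner software's processed signals and with the authors' deposited ratio table, 2 and 29 with median centring, and 3 and 16 with centring on kept probes. Member probes called higher numbered 13 with loess, 8 with a normexp offset of 0, 5 with processed signals and with the deposited table, and 4 with median centring; those lower numbered 13, and 1, 1, 53 and 27 with processed signals, the deposited table, median centring and centring on kept probes. Related genes called higher and lower went from 21 and 26 to 7 and 7 with processed signals and with the deposited table, 2 and 71 with median centring, and 13 and 51 with centring on kept probes. Median centring turned Becn1 (-0.20), Atg10 (-0.17), Pink1 (-0.28), Atg3 (-0.34), Wipi1 (-0.30), Wipi2 (-0.33), Optn (-0.30), Atg16l1 (-0.42), Fundc1 (-0.37), Atg5 (-0.41) and Pik3r4 (-0.48) below 0, and centring on kept probes did so for Atg3 (-0.053), Pik3r4 (-0.19), Atg16l1 (-0.14), Atg5 (-0.13), Fundc1 (-0.08), Wipi2 (-0.048), Wipi1 (-0.012) and Optn (-0.01). Of the genes that median centring turned, all but Atg10 were called lower there, and centring on kept probes called Pik3r4 lower. Median centring put the median of all genes at -0.31, and 4.12% of all calls were then higher, against 45.2% with loess. The calls of all genes numbered 6744 with loess, and 1189 higher and 1264 lower with processed signals. They numbered 464 higher and 10809 lower with median centring, and 5104 and 5965 with centring on kept probes. The cause of these shifts was not tested. With the mean of a gene's probes, Becn1, Atg10, Atg3, Atg7 and Atg12 lost their calls, and Wipi1, Ulk1 and Ulk2 gained one. The log2 ratio of Cbfa2t3 lay between -0.98 and -0.32 and was called under every alternative. With 1 array left there is a value and no test: Cbfa2t3 was then between -0.46 and -0.39, and counts of calls were not recomputed. The tested ratios already pair both siRNAs within each array. No further pairing was possible because the labels give 1 group of arrays.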
